A study of Mus musculus with 20 samples.

Results

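The endoplasmic reticulum (ER) is where proteins bound for the membrane or for secretion enter the secretory route, receive their first sugars and disulfide bonds and are folded. Described here are 40 genes of this machinery, out of the 15956 genes in the deposited counts, in the left ventricle of aged mice on 4 diets. The 40 genes were taken by symbol from a named list of ER genes, and all 40 were found. They fall into 8 role groups: HSP70 and HSP90 chaperones with their co-chaperones (9 genes), lectin chaperones and disulfide isomerases (6), stress sensors and transcription factors (3), the translocon with its TRAP complex (7), the oligosaccharyltransferase (5), the signal peptidase (3), ER-associated degradation (5) and the reticulocalbins (2).

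Unfolded protein in the ER is held by the chaperone BiP, the product of Hspa5, and its accumulation releases the membrane sensors IRE1 (Ern1), ATF6 (Atf6) and PERK (Eif2ak3). IRE1 splices the mRNA of the transcription factor Xbp1, ATF6 is cut to a soluble transcription factor, and PERK slows translation and favours ATF4, so that chaperones, translocation and degradation genes are raised together. In the heart this unfolded protein response is known for its part in the handling of secreted and membrane proteins under metabolic and haemodynamic load.

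RNA was measured by 3' mRNA sequencing, in which each transcript gives a tag near its 3' end, in 5 mice per diet, and the series title names the unfolded protein response as 1 of its subjects. The NP mice ate a normal protein diet, the LP mice a low protein diet, the HF mice a high-fat diet with normal protein, and the HF + LP mice a diet both high in fat and low in protein. All mice were males from the Jackson Laboratory of a strain not given in the sources used here, and by the labels all were 18 months old, whereas the study's methods describe measurements at a younger age. The labels name no genetic change or drug in any group, the tissue was whole left ventricle without sorting of cells, and in such bulk tissue fewer cells of a type and less RNA per cell cannot be told apart.

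The libraries held 12559607 to 23331907 counts. Cardiomyocyte markers were abundant in every library, with a summed level of 686323 to 1151670 normalized counts over 10 genes. Atrial myocyte markers (Myl7, Myl4, Sln, Nppa and Bmp10), which a left ventricle should hold at a low level, summed to between 957 and 252143 and exceeded 50000 in 6 libraries, namely NP mouse 5, LP mice 13 and 15, HF mice 1 and 3 and HF + LP mouse 3. LP mouse 13 also held the highest adipocyte marker sum (4849, against 8.65 to 2163 in the other libraries) and 5867 normalized counts of the brown fat gene Ucp1. LP mouse 20 held 10379 normalized counts over 12 thymocyte markers (Rag1, Dntt, Cd8a and others, a list chosen after the values were seen), against 15.3 to 101.8 in the other 19 libraries, and 9772 over the B and plasma cell list.

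Every member was detected, with mean counts normalized for library size from 31.9 (Pdia4) to 7369 (Hspa5), and 38 of 40 lay over a mean of 50, the minimum for a call. Pdia4 and Sdf2l1 lay below it. The spread between mice of 1 diet, as the coefficient of variation averaged over the 4 diets, ran from 6.37% to 52.4% with a median of 14.3%, and lay under 15% for 22 members. As 3' tags sit in each gene's end, levels are compared between diets and not between genes. Manf, Syvn1, Spcs1, Hsp90b1, Pdia3 and Ssr2 overlap other genes listed in the counts. Whether strand was used in counting is not given in the sources used here, so reads of these 6 members and of their overlapping partners cannot be told apart.

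The promoters of several members carry the ER stress response element (ERSE), which ATF6 and XBP1 are known to bind, so these sequences are shown first. ERSE was searched on both strands as CCAAT and CCACG separated by 9 bases, and ERSE-II as ATTGG and CCACG separated by 1 base, within the 250 bases before the RefSeq start of each gene (build GRCm38.p6). A promoter was found for 31 of the 40 members. The other 9 were Atf6, Derl1, Hyou1, Manf, Ostc, Rcn1, Sec11c, Sec61a1 and Ssr2. ERSE was present in 8 of the 31 promoters (25.8%) and in 35 of 27025 promoters of all genes (0.130%). ERSE-II was present in Herpud1 alone among the members, and in 0.0370% of all promoters. The UPR element core TGACGTGG was in none of the 31 member promoters and in 0.603% of all. The elements are printed in the direction of the motif, with the fixed letters in capitals.
Hspa5: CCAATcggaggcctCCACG
Calr: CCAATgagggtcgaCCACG
Canx: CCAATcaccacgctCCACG
Hsp90b1, first copy: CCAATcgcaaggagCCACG
Hsp90b1, second copy: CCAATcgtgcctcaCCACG
Pdia6: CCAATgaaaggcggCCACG
Dnajc3: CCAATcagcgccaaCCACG
Creld2: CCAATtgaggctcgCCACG
Syvn1: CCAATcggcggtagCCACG
Herpud1 (ERSE-II): ATTGGgCCACG

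The whole 250 bases before the start are shown for Hspa5, the standard reporter of the response, and for Dnajb11 and Rpn1, which were among the 5 members with the smallest p for fat averaged over protein levels (Rcn1, Ostc and Derl1, the other 3, have no promoter in the table). Syvn1 was added after its values were seen, as the member that followed Xbp1 most closely between mice. An ERSE is in capitals where present. The windows are chr2:34771840-34772089 (+), chr16:22857595-22857844 (+), chr6:88084223-88084472 (+) and chr19:6046326-6046575 (+) of GRCm38.p6, with the strand of the gene in parentheses.
Hspa5: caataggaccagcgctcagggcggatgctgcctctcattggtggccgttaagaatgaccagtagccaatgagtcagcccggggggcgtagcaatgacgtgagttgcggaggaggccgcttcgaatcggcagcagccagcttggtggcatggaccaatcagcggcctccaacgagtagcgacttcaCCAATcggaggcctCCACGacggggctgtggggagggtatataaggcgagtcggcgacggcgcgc
Dnajb11: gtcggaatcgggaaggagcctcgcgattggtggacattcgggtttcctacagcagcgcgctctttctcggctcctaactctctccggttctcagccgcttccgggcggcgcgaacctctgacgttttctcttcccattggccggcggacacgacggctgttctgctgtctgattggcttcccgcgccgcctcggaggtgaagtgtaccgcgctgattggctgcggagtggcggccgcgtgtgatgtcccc
Rpn1: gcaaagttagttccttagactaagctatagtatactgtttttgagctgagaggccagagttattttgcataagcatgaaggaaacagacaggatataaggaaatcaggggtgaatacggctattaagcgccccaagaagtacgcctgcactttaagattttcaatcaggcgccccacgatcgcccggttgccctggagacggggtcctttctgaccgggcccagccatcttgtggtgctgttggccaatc
Syvn1: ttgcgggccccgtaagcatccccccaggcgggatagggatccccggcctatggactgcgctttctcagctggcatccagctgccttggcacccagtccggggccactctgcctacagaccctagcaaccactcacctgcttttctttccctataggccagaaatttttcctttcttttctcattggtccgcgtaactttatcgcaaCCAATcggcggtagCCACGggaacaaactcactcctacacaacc
A match describes the letters in this window and nothing on binding.

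Fat at normal protein (HF against NP) asks how a high-fat diet changes the aged ventricle. Most members lay slightly higher in HF, and Rcn1 and Ostc had the smallest p. Of the 40 members, 30 were higher and 10 lower, with a median log2 fold change of 0.11, against 49.8% of all 13991 tested genes higher and a median of -0.0011. Genes of the same mice are not independent, so this count has no test. Averaged over the members in each mouse, the log2 deviation from each gene's mean was -0.048 ± 0.053 in NP and 0.048 ± 0.117 in HF (mean ± SD, n = 5). The groups overlapped, and HF mouse 2 (-0.145) lay below all NP mice (-0.106 to 0.027). With edgeR's quasi-likelihood test, calls being adjusted p under 0.01 with a mean over 50, 0 members were called, where 0.264% of all genes were. At an unadjusted p under 0.05, 2 members were higher and 0 lower (5%), against 13.1% of all genes. That count was 7 with the 2 groups fitted alone, 5 without HF mouse 2 and 4 without HF + LP mouse 3. DESeq2 called Rcn1 and Ostc, and gave 4 members at an unadjusted p under 0.05. The HF and NP groups did not overlap for the same 2 members, and 5.61% of all genes showed such a gap. The share of counts from mitochondrial genes was 38.1 to 39.8% in the HF libraries and 41.3 to 47.1% in the NP libraries, with no overlap, and 35.4 to 44.5% in LP and 38.5 to 47.2% in HF + LP. Its part in these values was not tested.

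In HF against NP the 95% interval of the log2 fold change lay within -0.50 to 0.50, an upper bound of 41.4%, for 23 members, and 28 had an estimate under 0.20 in size. The widest intervals belonged to Pdia4, Edem1, Sec61g and Syvn1. In the plot of diet differences these are the longest bars of the HF against NP panel.

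**Figure D1:**
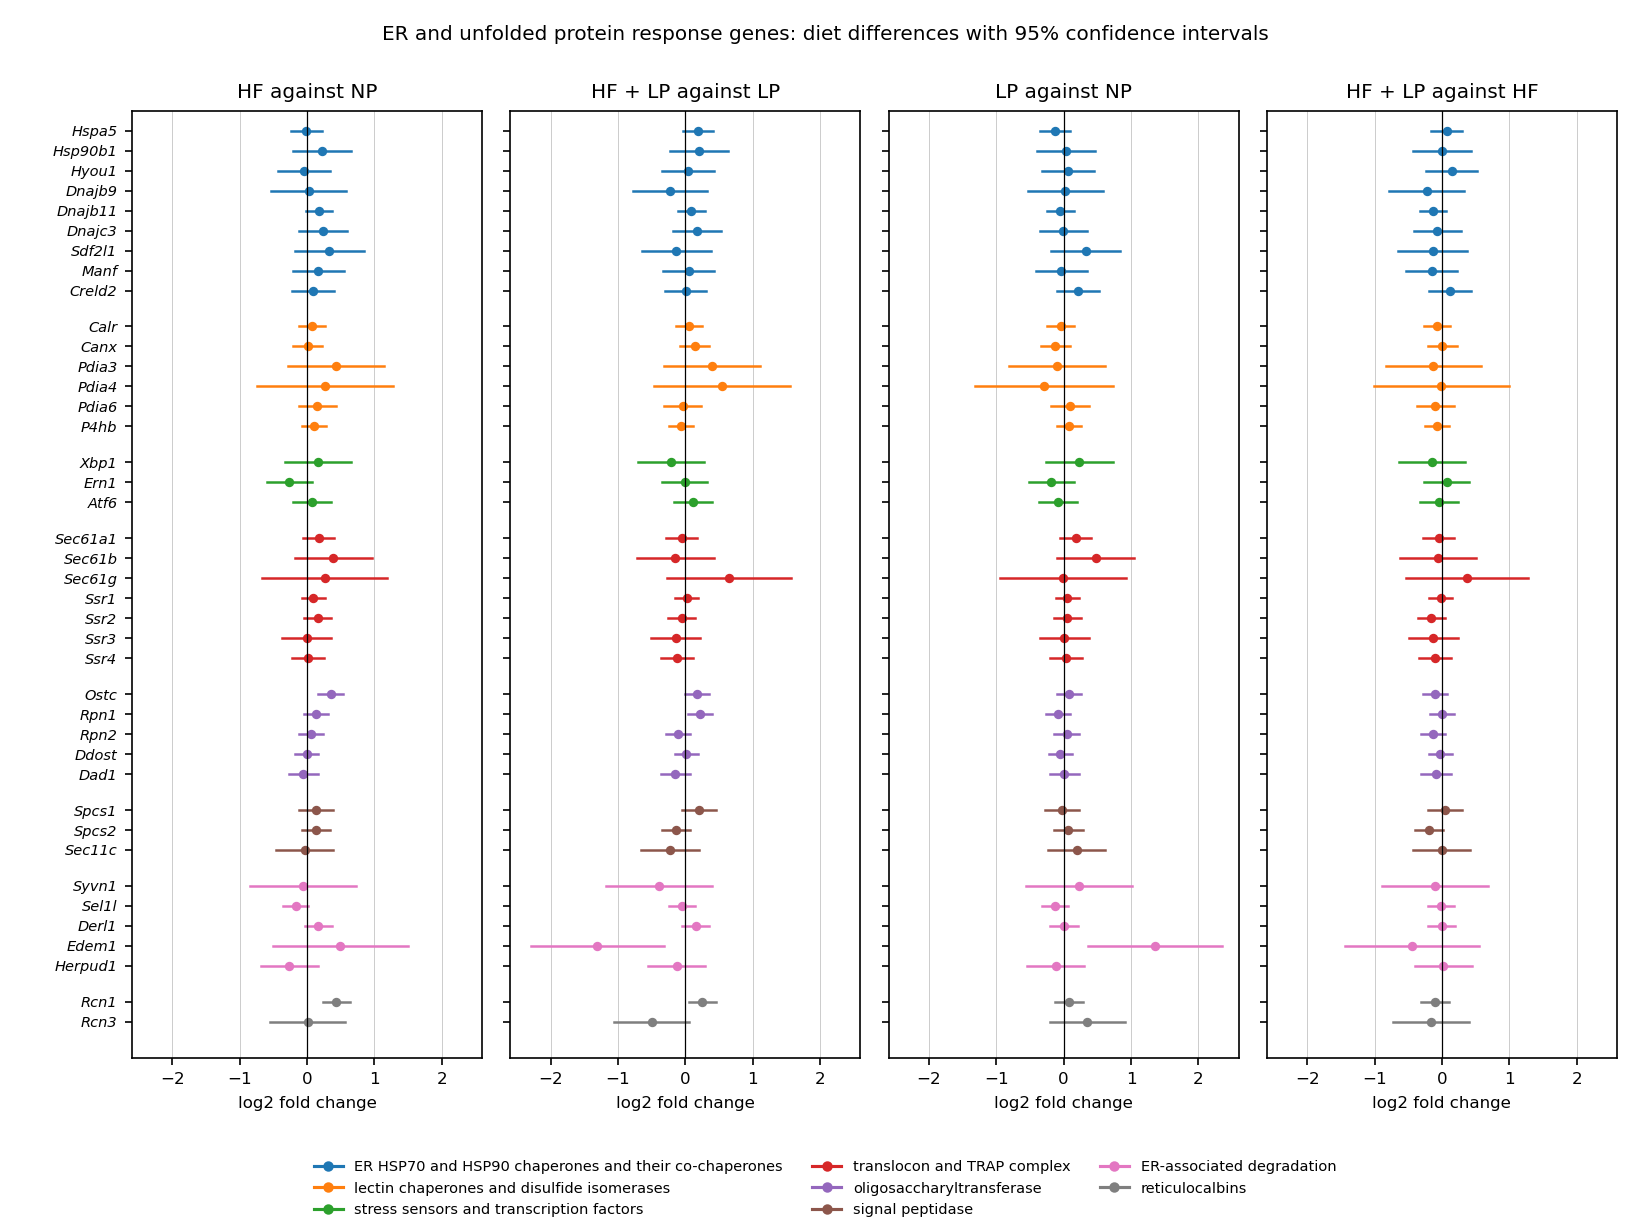
Log2 fold change (points) and 95% confidence interval (bars) of the 40 genes, coloured by role group, in the 4 comparisons between diets. Rcn1 (0.43) and Ostc (0.35) stand clear of 0 in HF against NP, Edem1 leaves 0 in both comparisons with LP, and most other bars cross 0.

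Fat at low protein (HF + LP against LP) gave no common direction. Of the members 20 were higher and 20 lower, with a median log2 fold change of -0.0039 (all genes: 45.8% higher, median -0.030). With 1 mouse left out the median ran from -0.025 to 0.021. edgeR called 0 members, against 0.1% of all genes, and DESeq2 also called 0. At an unadjusted p under 0.05, Rcn1 and Rpn1 were higher and Edem1 was lower (3 members, 7.5%), against 15.9% of all genes, and DESeq2 gave 4. The count was 5 without LP mouse 5 or without HF + LP mouse 3 and 1 without HF + LP mouse 4 or with the 2 groups fitted alone. No member's groups were apart, as were 1.82% of all genes. Of the marker lists, all 5 adipocyte markers (5 at an unadjusted p under 0.05) and all 8 B and plasma cell markers (3) were lower. So were all 5 atrial markers (1) and 6 of 9 smooth muscle and pericyte markers (4). At that p 2 of 11 macrophage and 2 of 10 endothelial markers were higher, and 0 of either list lower. The adipocyte sum was 4849 in LP mouse 13, 2163 in LP mouse 20 and 71.0 to 119.6 in the other LP mice. The B and plasma cell sum was 9772 in LP mouse 20 and 379 to 1910 in the other LP mice. The part of these markers was not tested.

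Averaged over both protein levels, fat raised 1 member past the call, Rcn1, where 0.993% of all genes were called. That count was 0 in 13 of 20 fits with 1 mouse left out, with the library-name number (1 to 3, its meaning not given in the labels) as covariate, without LP mice 13 and 20, and without the 6 atrial-rich libraries. Of the members 25 were higher and 15 lower, with a median of 0.055 against -0.017 over all genes. At an unadjusted p under 0.05 stood Rcn1, Ostc, Rpn1 and Derl1, all higher (10% of members, against 20.8% of all genes). DESeq2 called Rcn1 and Ostc, with 6 members at an unadjusted p under 0.05, and edgeR gave 7 without HF mouse 2.

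Protein restriction gave no member past the call. In LP against NP, 24 were higher and 16 lower with a median of 0.028 (all genes: 54.6% higher, 0.023). The median was -0.0057 without LP mouse 13 and 0.054 without LP mouse 5, and -0.0004 without the 6 atrial-rich libraries, so that leaving out LP mouse 13 turned its sign. edgeR called 0 members and 0% of all genes, and DESeq2 called 0 members. Edem1 alone lay at an unadjusted p under 0.05 in edgeR, where 7.23% of all genes did, and DESeq2 gave 1 member. The LP and NP groups overlapped for all 40 members, while 0.815% of all genes were apart. Without LP mice 13 and 20, a choice made after seeing the data, edgeR gave 0 members at an unadjusted p under 0.05, as it did without LP mouse 20 alone. It gave 3 without the 6 atrial-rich libraries and 2 without NP mouse 6, LP mouse 2 or LP mouse 5. In this comparison all 8 B and plasma cell markers (5 at an unadjusted p under 0.05), all 5 adipocyte markers (2) and all 5 atrial markers (1) were higher, and their part was not tested. LP mouse 20 had the highest B and plasma cell sum, and LP mouse 13 the highest adipocyte and atrial sums.

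Within the high-fat diets (HF + LP against HF), 31 members were lower and 9 higher with a median of -0.066, against 53.7% of all genes higher and a median of 0.017. The median was -0.13 without HF + LP mouse 3 and -0.039 without HF mouse 1. edgeR called 0 members and 0% of all genes, and DESeq2 called 0 members. No member lay at an unadjusted p under 0.05 in edgeR (4.84% of all genes) and 1 did in DESeq2, while edgeR gave up to 2 with 1 mouse left out (2 without HF + LP mouse 3). No member's groups were apart, against 1.15% of all genes. For 37 of 40 members the estimate was under 0.20 in size. HF against NP and HF + LP against HF share the 5 HF mice, so their medians are not independent of each other. Markers of other cells were also lower in HF + LP than in HF. The fibroblast markers were lower in 10 of 10 genes, 4 of them at an unadjusted p under 0.05 (40%), with a median of -0.33, and the macrophage markers in 11 of 11, 2 of them (18.2%), with a median of -0.36. The cardiomyocyte markers were higher in 9 of 10 genes, with 0 past that p. Their part in the members' values was not tested.

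Averaged over both fat levels, protein restriction gave 0 members called and 0 at an unadjusted p under 0.05 in edgeR as in DESeq2, beside 0% and 5.47% of all genes. The count of members was 1 without NP mouse 6 or without the 6 atrial-rich libraries. The interaction, which asks whether fat acts differently at the 2 protein levels, gave 0 members called by either tool, beside 0% of all genes. Edem1 alone lay at an unadjusted p under 0.05 in edgeR (2.5%, against 7.17% of all genes) and 2 members did in DESeq2. In edgeR this was 0 without LP mouse 20, and 2 without LP mouse 5, LP mouse 15, HF mouse 2 or HF + LP mouse 3.

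The stress sensors and their transcription factors had no p under 0.05 in any diet comparison. In all the lists that follow, normalized counts are given for NP mice 3, 4, 5, 6 and 8, LP mice 2, 5, 13, 15 and 20, and mice 1 to 5 of HF and of HF + LP, in that order. Xbp1 stood at 333, 555, 355, 331 and 521 in the NP mice, 458, 427, 619, 406 and 536 in the LP mice, 335, 246, 667, 491 and 608 in the HF mice, and 501, 387, 528, 406 and 295 in the HF + LP mice. The lowest value (HF mouse 2) and the highest (HF mouse 3) were both in HF, so its range covered all other groups. Its log2 fold change was 0.17 (SE 0.24, 95% confidence interval -0.33 to 0.66, adjusted p = 0.849) in HF against NP and 0.23 (SE 0.24, 95% confidence interval -0.26 to 0.73, adjusted p = 0.913) in LP against NP. A 3' tag count does not separate spliced from unspliced Xbp1 mRNA.

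Ern1, the gene of the kinase and nuclease IRE1, stood at 146, 153, 118, 113 and 144 in the NP mice, 103, 109, 153, 109.8 and 113 in the LP mice, 105, 81.2, 109, 118 and 145 in the HF mice, and 143, 108, 109, 93.0 and 136 in the HF + LP mice. NP mouse 4 and LP mouse 13 were highest and HF mouse 2 lowest, and every pair of groups overlapped. Its difference on the log2 scale was -0.26 (SE 0.16, 95% confidence interval -0.60 to 0.07, adjusted p = 0.535) in HF against NP and -0.18 (SE 0.16, adjusted p = 0.889) in LP against NP. Atf6 stood at 822, 739.7, 947, 833 and 993 in the NP mice, 936, 989.5, 675, 733 and 739 in the LP mice, 812, 775, 1070.0, 912 and 1008 in the HF mice, and 1082, 747, 898, 962 and 740.4 in the HF + LP mice. Its groups overlapped throughout, with log2 fold changes of 0.077 (SE 0.13, adjusted p = 0.884) in HF against NP and 0.11 (SE 0.13, adjusted p = 0.711) in HF + LP against LP.

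Among the HSP70 and HSP90 chaperones and co-chaperones, 7 of 9 were higher in HF against NP (log2 fold changes -0.042 to 0.33) and none lay at an unadjusted p under 0.05 in any of the 4 comparisons between diets. Hspa5, the chaperone BiP, stood at 8067, 6997, 7031, 7735 and 7503 in the NP mice, 7549, 8192, 5505, 6613 and 6138 in the LP mice, 6990.0, 8572, 6493, 7832 and 7192 in the HF mice, and 7499, 7270.4, 6989, 8675 and 8540.3 in the HF + LP mice. The lowest value belonged to LP mouse 13, and the groups overlapped. Its log2 fold change was -0.011 (SE 0.11, 95% confidence interval -0.24 to 0.22, adjusted p = 0.986) in HF against NP, 0.19 (SE 0.11, adjusted p = 0.405) in HF + LP against LP and -0.13 (SE 0.11, adjusted p = 0.879) in LP against NP.

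Dnajb11, a co-chaperone that brings unfolded protein to BiP, stood at 389.6, 405, 364, 367 and 403 in the NP mice, 371, 357, 427, 353 and 345 in the LP mice, 404, 394, 426, 458 and 495 in the HF mice, and 353, 458, 361, 392 and 424 in the HF + LP mice. The 2 highest values were HF mice 5 and 4, and the groups overlapped. On the log2 scale its difference was 0.13 (SE 0.066, adjusted p = 0.263) for fat averaged over protein levels and -0.13 (SE 0.094, adjusted p = 0.999) in HF + LP against HF, the latter -0.085 without HF mouse 5. Creld2, a secreted ER stress gene, stood at 85.2, 72.4, 67.7, 112 and 80.6 in the NP mice, 109, 99.95, 81.3, 75.2 and 116 in the LP mice, 88.1, 74.8, 91.4, 102 and 89.7 in the HF mice, and 108, 99.9, 86.0, 98.5 and 94.3 in the HF + LP mice. It was the member with the smallest p for protein averaged over fat levels, at 0.17 (SE 0.11, adjusted p = 1), with all groups overlapping. Hsp90b1, the ER HSP90, ran from 1774 to 2677 in the NP mice, 1411 to 2779.7 in the LP mice, 2039 to 3254 in the HF mice and 1669.5 to 3288 in the HF + LP mice. Hyou1, Dnajb9, Dnajc3, Sdf2l1 and Manf had log2 fold changes between -0.042 (Hyou1) and 0.33 (Sdf2l1) in HF against NP.

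**Figure D2:**
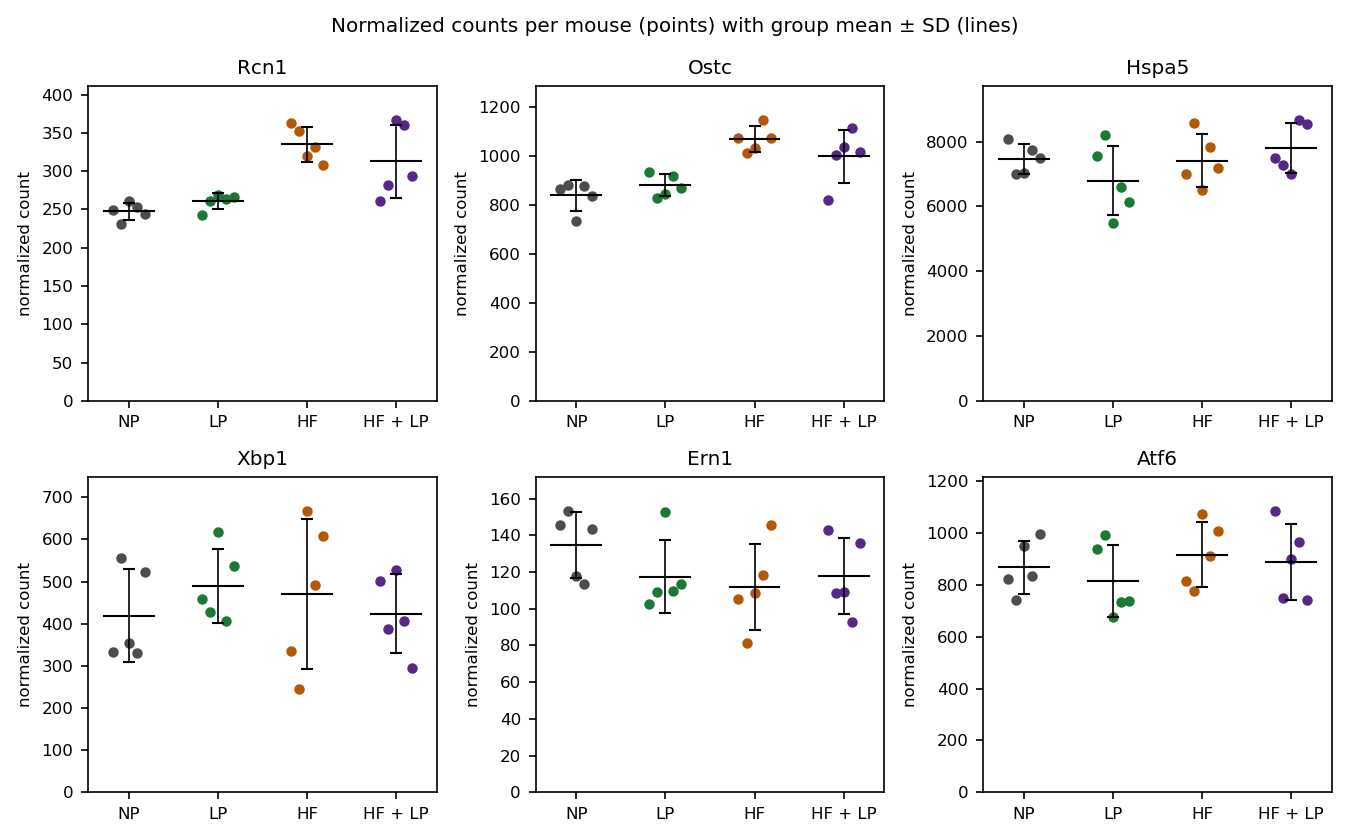
Normalized counts of 6 genes in each mouse (points) by diet, with the group mean and SD (n = 5 per diet, lines). The 5 HF values of Rcn1 and of Ostc lie above all NP values, while Hspa5, Xbp1, Ern1 and Atf6 overlap between all diets.

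The lectin chaperones calreticulin (Calr) and calnexin (Canx), which hold sugar-bearing proteins during folding, and the disulfide isomerases Pdia3, Pdia4, Pdia6 and P4hb were all 6 higher in HF against NP (0.0079 to 0.43), and none lay at an unadjusted p under 0.05 in any comparison. Within the group P4hb and Calr varied least between mice. Calr ran from 2002 to 2225 in the NP mice, 1912 to 2286 in the LP mice, 1994 to 2509 in the HF mice and 1796 to 2417 in the HF + LP mice. Pdia3, which partners both lectins, varied widely within each diet, from 321 to 869 in the NP mice, 226 to 1002 in the LP mice, 532 to 1397 in the HF mice and 528 to 1036 in the HF + LP mice. Its log2 fold change for fat averaged over protein levels was 0.41 (SE 0.24, adjusted p = 0.345). Pdia4, below the minimum level for a call, ran from 9.35 to 57.5 in the NP mice, 5.50 to 45.0 in the LP mice, 20.5 to 60.6 in the HF mice and 15.8 to 48.1 in the HF + LP mice.

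The translocon passes new chains into the ER, and the TRAP complex (Ssr1 to Ssr4) assists it. In HF against NP 6 of 7 of these genes were higher and in HF + LP against HF 6 of 7 were lower, none at an unadjusted p under 0.05. Sec61a1, the channel itself, stood at 988, 1074, 856, 1095 and 972 in the NP mice, 999.9, 989.5, 1337, 1215 and 1059 in the LP mice, 1133, 1111, 1102, 1213 and 1054 in the HF mice, and 869, 1235, 929.6, 1169 and 1226 in the HF + LP mice. It was highest in LP mouse 13, with 0.18 (SE 0.11, adjusted p = 0.808) in LP against NP, where it had the third smallest p of the members. That value was 0.10 without LP mouse 13 and 0.0008 with the 6 libraries richest in atrial counts left out. Ssr2 stood at 287, 243, 261, 251 and 249.7 in the NP mice, 272, 275, 230.4, 275 and 281 in the LP mice, 253, 286, 273, 332 and 296 in the HF mice, and 271, 298, 239, 236 and 246 in the HF + LP mice. Its highest value was HF mouse 4, and the log2 fold change was -0.16 (SE 0.10, adjusted p = 0.999) in HF + LP against HF (-0.10 without HF mouse 4) and -0.21 (SE 0.13, adjusted p = 0.791) for the interaction (-0.34 without the 6 atrial-rich libraries).

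Sec61b, the beta subunit of the channel, stood at 137, 174, 132, 125 and 170.1 in the NP mice, 163, 136, 257, 146 and 312 in the LP mice, 171, 88.9, 226, 229 and 247 in the HF mice, and 178, 201, 212, 239.7 and 98.4 in the HF + LP mice. The highest value was LP mouse 20 and the next LP mouse 13, the libraries with thymocyte and with atrial and adipose transcripts. The log2 fold change in LP against NP was 0.48 (SE 0.27, adjusted p = 0.772). It was 0.27 without LP mouse 20 and 0.010 without LP mice 13 and 20. For protein averaged over fat levels the value of 0.21 was 0.10 without LP mouse 20, 0.12 without HF mouse 2, and turned to -0.028 without both LP mice. Sec61g had wide intervals, with 0.64 (SE 0.44, adjusted p = 0.491) in HF + LP against LP. Ssr1, Ssr3 and Ssr4 had log2 fold changes between -0.0038 and 0.09 in HF against NP.

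The oligosaccharyltransferase attaches the sugar tree to chains as they enter. Its subunit Ostc, a small membrane protein that docks the enzyme to the translocon, stood at 865, 882, 733, 879.9 and 837 in the NP mice, 936, 831, 847, 919 and 871 in the LP mice, 1075, 1013, 1034, 1149 and 1075 in the HF mice, and 819, 1005, 1036, 1117 and 1018 in the HF + LP mice. All 5 HF values lay above all 5 NP values, while HF + LP mouse 1 lay within the range of NP. The means were 839.7 ± 62.0 in the NP mice, 881 ± 45.6 in the LP mice, 1069 ± 51.9 in the HF mice and 999 ± 109 in the HF + LP mice (mean ± SD, n = 5). The log2 fold change was 0.35 (SE 0.086, 95% confidence interval 0.17 to 0.53, adjusted p = 0.0464) in HF against NP, 0.17 (SE 0.086, adjusted p = 0.329) in HF + LP against LP and 0.26 (SE 0.061, adjusted p = 0.0177) for fat averaged over protein levels. Ostc missed the call in edgeR in all 3, while DESeq2 called it in HF against NP (adjusted p = 0.000356) and for fat averaged (adjusted p = 6.91e-05).

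Rpn1, a larger subunit of the same enzyme, stood at 984, 1032, 897, 1081 and 999 in the NP mice, 992, 901, 950.5, 935 and 917 in the LP mice, 1049, 1063, 1145, 1144 and 1085 in the HF mice, and 949, 1100.4, 1059, 1332 and 1043 in the HF + LP mice. HF + LP mouse 4 was highest. Rpn1 differed by 0.21 (SE 0.086, adjusted p = 0.227) in HF + LP against LP (0.135 without HF + LP mouse 4), 0.14 (SE 0.086, adjusted p = 0.567) in HF against NP and 0.17 (SE 0.061, adjusted p = 0.103) for fat averaged. Rpn2 stood at 861, 902, 797, 833 and 758 in the NP mice, 811, 789, 993, 876 and 784 in the LP mice, 842, 887, 795, 931 and 883 in the HF mice, and 722, 815, 733, 839.6 and 846 in the HF + LP mice. Its groups overlapped, at -0.13 (SE 0.086, adjusted p = 0.999) in HF + LP against HF and -0.18 (SE 0.12, adjusted p = 0.817) for the interaction, the latter -0.12 without LP mouse 13 and -0.11 without the 6 atrial-rich libraries. Ddost and Dad1, the remaining subunits, had -0.0083 and -0.054 in HF against NP. Of the 5 subunits Ostc and Rpn1 lay at an unadjusted p under 0.05 for fat averaged.

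Of the signal peptidase, which cuts the targeting peptide from new chains, Spcs2 stood at 594, 682, 625, 604 and 689 in the NP mice, 722, 576, 708, 564 and 764 in the LP mice, 685, 590.3, 750.4, 684 and 787 in the HF mice, and 636, 609, 637, 591 and 586 in the HF + LP mice. The HF + LP values lay close together and inside the range of LP. It had the smallest p of the members in HF + LP against HF, with a log2 fold change of -0.19 (SE 0.10, adjusted p = 0.999), and -0.26 (SE 0.14, adjusted p = 0.733) for the interaction, which was -0.16 without LP mice 13 and 20. Spcs1 had 0.17 (SE 0.086, adjusted p = 0.276) for fat averaged and Sec11c, a catalytic subunit, -0.036 in HF against NP.

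In ER-associated degradation, which returns misfolded chains to the cytosol, 3 of 5 members were lower in HF against NP (-0.26 to 0.49). Derl1, part of the exit channel, stood at 837, 782, 681, 744 and 735 in the NP mice, 746, 673, 883, 776 and 694 in the LP mice, 946, 767, 832, 835 and 857 in the HF mice, and 807, 862, 735, 994 and 835 in the HF + LP mice. Its highest values were HF + LP mouse 4 and HF mouse 1, and its groups overlapped, with 0.16 (SE 0.068, adjusted p = 0.184) for fat averaged and an unadjusted p of 0.0298. Sel1l, the adaptor of the ubiquitin ligase, stood at 1509, 1308, 1218, 1279.7 and 1275 in the NP mice, 1181, 1114, 1326, 1279 and 1094 in the LP mice, 1151, 1251, 1079, 1224 and 1150.1 in the HF mice, and 1116, 1268, 958, 1204 and 1277 in the HF + LP mice. NP mouse 3 was highest, and Sel1l was -0.17 (SE 0.092, adjusted p = 0.459) in HF against NP, -0.13 (SE 0.092, adjusted p = 0.846) in LP against NP and -0.068 (SE 0.065, adjusted p = 1) for protein averaged. Without the 6 atrial-rich libraries the last 2 values were -0.23 and -0.11, and without NP mouse 3 they were -0.077 and -0.042. Herpud1, an ERSE-II gene, ran from 2132 to 2643 in the NP mice, 1459 to 3051 in the LP mice, 1861 to 2270.0 in the HF mice and 1362 to 3142 in the HF + LP mice, with -0.26 (SE 0.20, adjusted p = 0.662) in HF against NP. Syvn1, the ligase itself, had -0.058 in HF against NP with an interval of -0.85 to 0.73.

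Edem1, a lectin that hands misfolded glycoproteins to degradation, stood at 33.5, 61.9, 54.9, 49.0 and 92.8 in the NP mice, 63.7, 62.0, 105, 59.2 and 441 in the LP mice, 70.7, 46.4, 109, 68.3 and 113 in the HF mice, and 71.4, 69.4, 71.2, 46.0 and 43.6 in the HF + LP mice. LP mouse 20 alone was at 441, and every other mouse of the study was at 113 or lower. Its log2 values were 1.36 (SE 0.48, adjusted p = 0.568) in LP against NP, -1.31 (SE 0.47, adjusted p = 0.184) in HF + LP against LP, 0.46 (SE 0.34, adjusted p = 1) for protein averaged and -1.80 (SE 0.67, adjusted p = 0.671) for the interaction. Without LP mouse 20 these were 0.33, -0.29, -0.055 and -0.78, the third with its sign turned. That library held 10379 summed counts of thymocyte markers, the next highest library being at 101.8 (HF + LP mouse 3). The thymocyte list was chosen after the values were seen, so no test is given for it. LP mouse 20 also held the highest B and plasma cell sum (9772, the next being 1910 in LP mouse 13) and the second lowest cardiomyocyte sum (723792). Its adipocyte sum (2163) and its 917 counts of Ucp1 were second to those of LP mouse 13. The B and plasma cell markers were higher in 8 of 8 genes in LP against NP, 5 of them at an unadjusted p under 0.05. Their part in the Edem1 value was not tested.

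**Figure D3:**
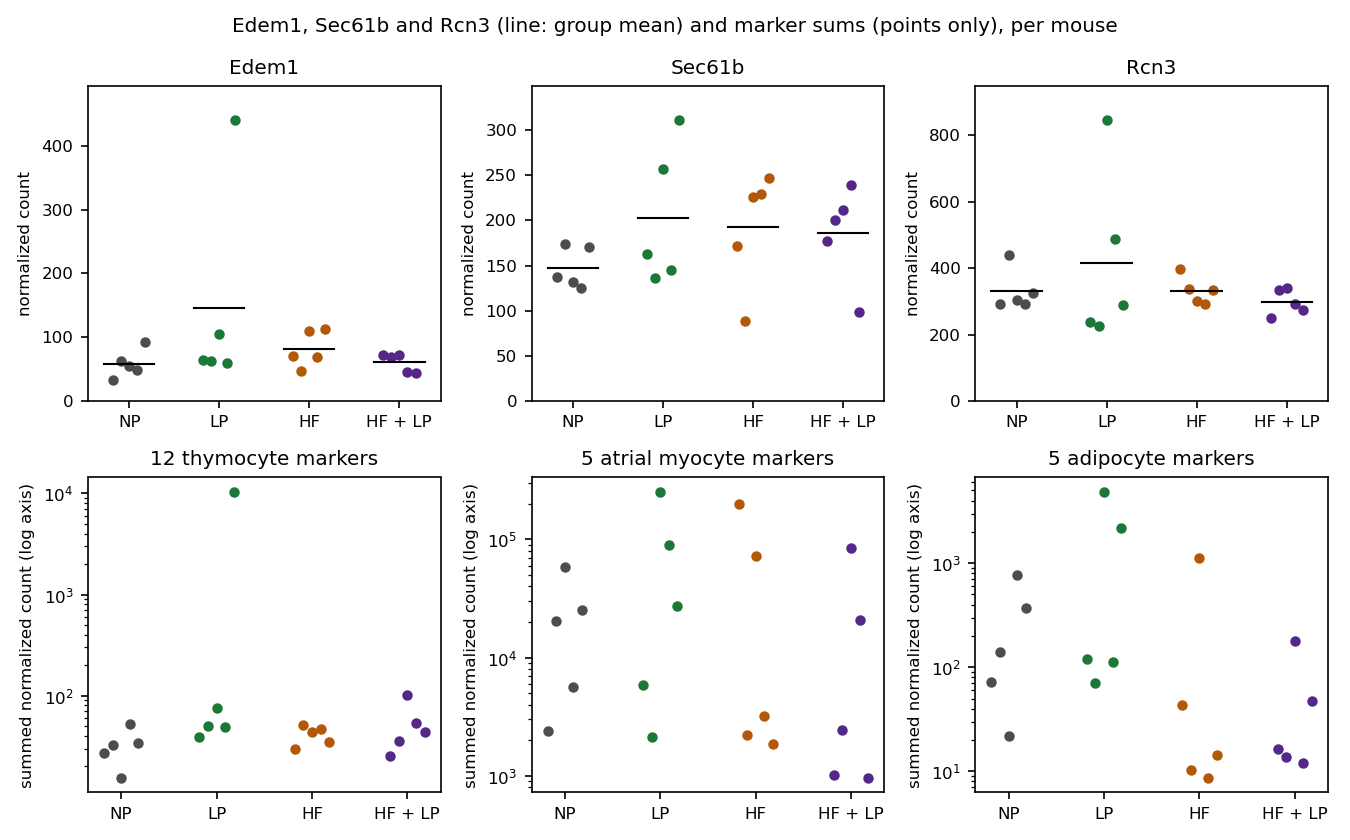
Normalized counts of Edem1, Sec61b and Rcn3 per mouse (upper row, points, with the group mean as a line) and summed normalized counts of 12 thymocyte, 5 atrial and 5 adipocyte markers per mouse (lower row, log axis). LP mouse 20 is highest for Edem1, Sec61b and the thymocyte markers, and LP mouse 13 for Rcn3 and for the atrial and adipocyte markers.

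The reticulocalbins are calcium-binding proteins of the ER lumen, and Rcn1 was the member with the smallest p in HF against NP and for fat averaged. Rcn1 stood at 249, 231, 261, 254 and 244 in the NP mice, 243, 261, 269.6, 264 and 267 in the LP mice, 363, 353, 320.5, 331 and 308 in the HF mice, and 261, 282, 367, 360.2 and 293 in the HF + LP mice. Every HF value lay above every NP value, and HF + LP mouse 3 lay above the HF range, mouse 4 within it, mice 2 and 5 between the HF and LP ranges, and mouse 1 within the LP range. The means were 248 ± 11.002 in the NP mice, 261 ± 10.4 in the LP mice, 335 ± 22.8 in the HF mice and 313 ± 48.0 in the HF + LP mice (mean ± SD, n = 5). The log2 fold change was 0.43 (SE 0.10, 95% confidence interval 0.23 to 0.64, adjusted p = 0.0324) in HF against NP, 0.25 (SE 0.10, 95% confidence interval 0.047 to 0.46, adjusted p = 0.212) in HF + LP against LP and 0.34 (SE 0.07, 95% confidence interval 0.20 to 0.49, adjusted p = 0.00737) for fat averaged, a difference of 26.8% and the 1 call among the members. Protein restriction gave 0.083 (SE 0.10, adjusted p = 0.931) at normal fat and -0.10 (SE 0.10, adjusted p = 0.999) at high fat. The interaction was -0.18 (SE 0.14, adjusted p = 0.843), which did not pass the test.

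The Rcn1 call was lost in several alternatives. Leaving out each mouse in turn kept the log2 fold change for fat averaged between 0.32 and 0.37 but lost the call in 13 of 20 cases (any of the 5 NP mice, LP mice 2, 15 and 20, HF mice 1 to 4 and HF + LP mouse 4), with adjusted p between 0.00478 and 0.0164. With the 6 libraries richest in atrial counts left out it was 0.31 (adjusted p = 0.0652), and with LP mice 13 and 20 left out 0.35 (adjusted p = 0.0140). With the library-name number as covariate it was 0.33 (adjusted p = 0.0196).

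Markers of cell types are given beside these values. In HF against NP the fibroblast markers were higher in 10 of 10 genes, 3 of them at an unadjusted p under 0.05, with summed levels of 19978 to 25897 in HF against 17564 to 21040 in NP, and 15937 to 23913 in LP and 16551 to 21055 in HF + LP. The macrophage markers were higher in 11 of 11, 7 of them at an unadjusted p under 0.05, at 7577 to 9978 in HF against 5700 to 7558 in NP, with 4265 to 10081 in LP and 5721 to 7966 in HF + LP. The cardiomyocyte markers were lower in 10 of 10, 4 of them at an unadjusted p under 0.05, at 747567 to 969930 in HF against 954358 to 1151670 in NP, and no marker of these 3 lists was at 0 in any library. The smooth muscle and pericyte markers were lower in 8 of 9, 5 of them at an unadjusted p under 0.05, with a median log2 fold change of -0.56, at 8661 to 11019.5 in HF against 10646 to 11519 in NP, with 8426 to 12264 in LP and 9804 to 13467 in HF + LP. None of these 4 lists held a call in HF against NP. For fat averaged, 2 smooth muscle markers were called lower, Myh11 at -1.54 (SE 0.23, adjusted p = 0.000572) and Notch3 at -0.52 (SE 0.10, adjusted p = 0.00546). The cardiomyocyte marker Myh6 was also called lower, at -0.55 (SE 0.095, adjusted p = 0.00252), and the macrophage marker Cx3cr1 was called higher, at 0.83 (SE 0.16, adjusted p = 0.00636). Over these lists the smooth muscle markers were lower in 7 of 9 genes for fat averaged (median -0.43), the cardiomyocyte markers in 8 of 10 (median -0.051), and the macrophage markers were higher in 8 of 11 (median 0.27). In HF + LP against LP 5 macrophage markers were higher and 6 lower, and 7 cardiomyocyte markers were higher and 3 lower. All 5 adipocyte markers and 3 of 8 B and plasma cell markers were lower at an unadjusted p under 0.05 for fat averaged, 0 of them called. The atrial markers were higher in 5 of 5 genes in HF against NP, at 1856 to 199570 in the HF mice against 2384 to 58868 in the NP mice, with none at an unadjusted p under 0.05. Their part in the Rcn1 and Ostc values and in the members' median was not tested.

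Rcn3, the other reticulocalbin, stood at 291, 439, 303, 292 and 325 in the NP mice, 237, 225, 847, 487 and 289 in the LP mice, 398, 336, 301, 291 and 334 in the HF mice, and 249, 336, 339, 291 and 274 in the HF + LP mice. LP mouse 13 was far above all others. Rcn3 differed by -0.50 (SE 0.27, adjusted p = 0.372) in HF + LP against LP and -0.060 without LP mouse 13, and it turned to 0.17 with the 6 libraries richest in atrial counts left out. In HF against NP it was 0.0069 (SE 0.27, adjusted p = 0.998).

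Between mice of 1 diet a set of the members followed Xbp1. To describe this, log2 CPM (counts scaled to library size) were taken as deviations from the diet mean, and edgeR was refitted with the Xbp1 value as a covariate beside the diet means, a choice made after seeing the data. Of the other 39 members 6 rose with Xbp1 at adjusted p under 0.01 (15.4%) and 0 fell, where 6.76% of all 13990 genes tested rose and 1.86% fell. By Pearson's r 23 members were above 0 and 16 below.

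The 6 members were Syvn1, Manf, Sec11c, Dnajb9, Ssr3 and Sec61b. They come from 4 role groups, namely degradation, co-chaperones, the signal peptidase and the translocon, and none was called in any diet comparison. Syvn1 and Manf overlap other listed genes, whose reads cannot be told apart from theirs. Mrpl49 held 9000 counts over all libraries against 4100 for Syvn1. Dcaf1 held 2187 and Rbm15b 2220 against 7536 for Manf. Syvn1, the degradation ligase, stood at 159.7, 250.1, 153, 136 and 262 in the NP mice, 219.7, 177, 281, 191 and 249 in the LP mice, 90.6, 51.6, 292, 189 and 291 in the HF mice, and 239.7, 170.4, 180.4, 208 and 58.8 in the HF + LP mice. It was lowest in HF mouse 2 and HF + LP mouse 5, the mice with the lowest Xbp1, and changed by 1.59 log2 units per log2 unit of Xbp1 (adjusted p = 2.1e-06). Its correlation with Xbp1 over 20 mice was r = 0.93, rho = 0.93 (permutation within diets, 2-sided p = 1e-05 and 2e-05, the former the smallest that 100000 permutations can give).

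Manf, a secreted ER stress factor, stood at 311, 393, 294, 314 and 456 in the NP mice, 374, 341, 336, 295 and 371 in the LP mice, 308, 267, 504, 413 and 491 in the HF mice, and 393, 324, 462, 356 and 254 in the HF + LP mice. It was highest in HF mouse 3, as was Xbp1, and correlated with Xbp1 at r = 0.92, rho = 0.90 (permutation p = 1e-05 and 2e-05, edgeR adjusted p = 1.66e-05). Sec11c (r = 0.86, rho = 0.84), Dnajb9 (r = 0.82, rho = 0.83), Ssr3 (r = 0.83, rho = 0.83) and Sec61b (r = 0.81, rho = 0.77) had permutation p between 1e-05 and 0.00043 and edgeR adjusted p between 0.000179 and 0.000913. Without the 2 mice farthest from the median of Xbp1, HF mice 2 and 3, r was between 0.75 and 0.88 for the 6. Within the 10 libraries with the number 3 in their name, a number whose meaning the labels do not give, r was between 0.70 and 0.96. Those deviations were still from the means of all mice of a diet. The numbers 1 and 2 hold 5 libraries each, too few for a value. The 6 members were picked by their fit to Xbp1 in these same mice. The r and p given for them therefore describe the relation and are no separate test of it. The fit without HF mouse 2 lost the call of Sec61b (adjusted p = 0.0146).

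**Figure D4:**
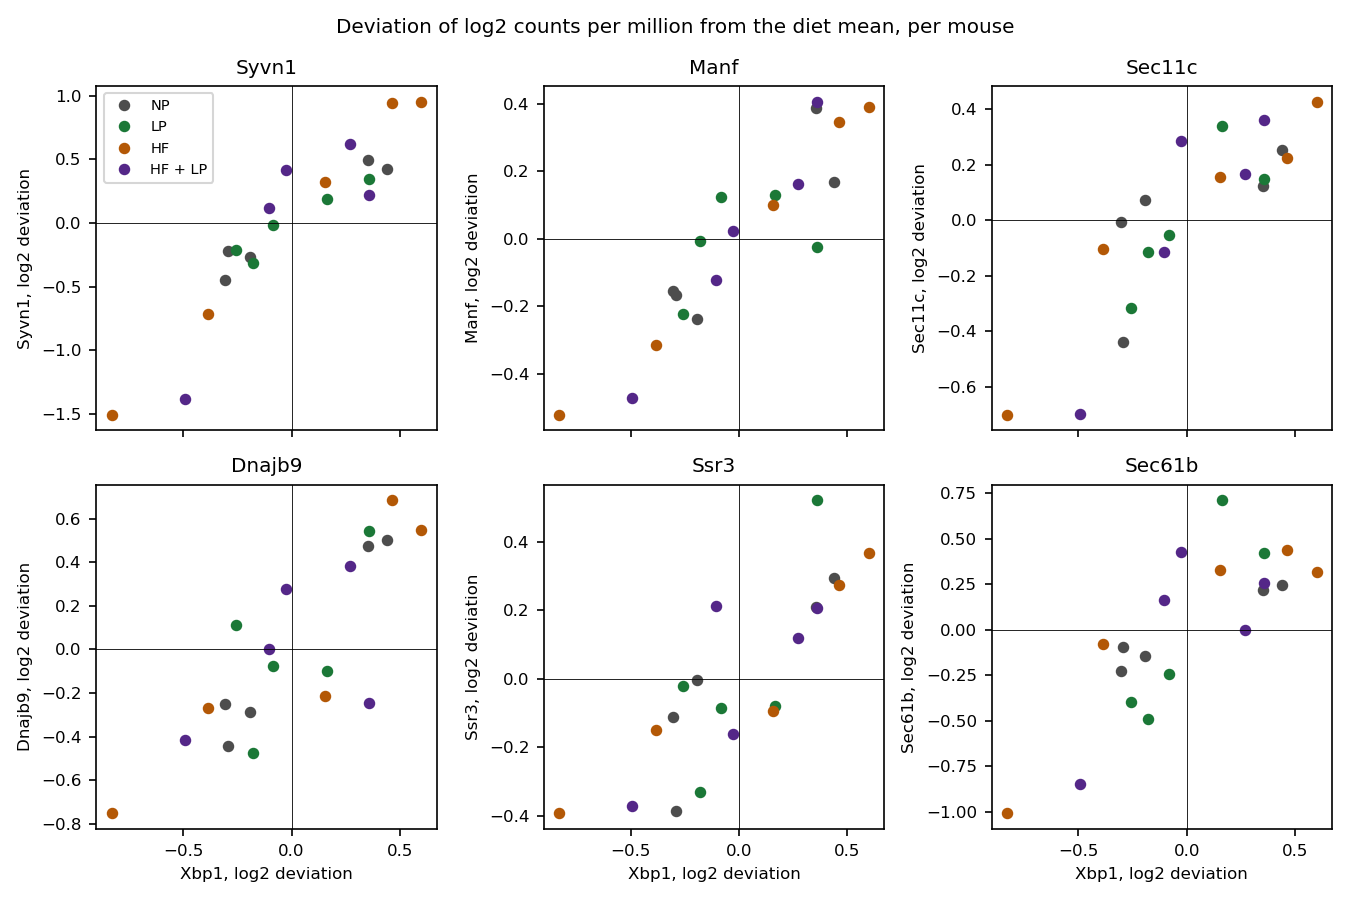
Deviation from the diet mean of log2 CPM for Xbp1 (x axis) and for each of 6 genes (y axis), 1 point per mouse, coloured by diet. In all 6 panels the points rise together, and HF mouse 2 lies at the lower left.

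None of the 16 members with r below 0 was called, and the 4 lowest were Canx, Ssr1, Pdia3 and Hspa5. Canx (r = -0.79, rho = -0.80, permutation p = 0.00026 and 0.00032) had an edgeR adjusted p of 0.0106, just past the threshold. Ssr1, a TRAP subunit (r = -0.70, rho = -0.72, permutation p = 0.00396 and 0.00495), had 0.0815. Pdia3 (r = -0.65, rho = -0.69, permutation p = 0.00297 and 0.00474) had 0.0173. Hspa5 (r = -0.61, rho = -0.58, permutation p = 0.00336 and 0.00904) had 0.0642. Without HF mice 2 and 3 these r were -0.68, -0.66, -0.59 and -0.48. Of the 8 ERSE genes Syvn1 was the only one called, with Canx, Hspa5, Dnajc3 and Calr at r below 0 and Pdia6, Hsp90b1 and Creld2 above.

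**Figure D5:**
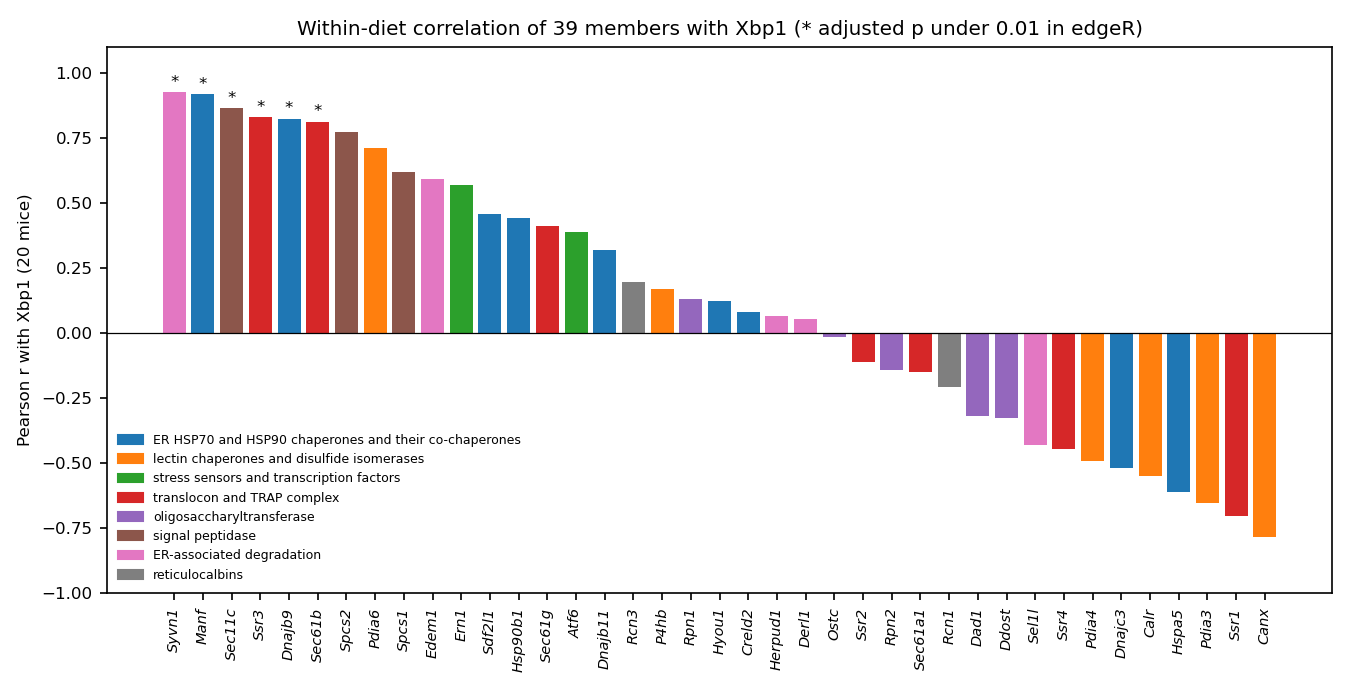
Pearson's r with Xbp1 over 20 mice, on deviations from the diet mean, for the 39 other genes, coloured by role group, with a star where the edgeR fit called the gene. Values run from 0.93 (Syvn1) to -0.79 (Canx).

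The cardiomyocyte marker sum ran against Xbp1. Of 11 library measures (9 marker sums, total counts and the mitochondrial share), the cardiomyocyte sum had r = -0.68 and rho = -0.71 (permutation p = 0.00015 and 0.00030, adjusted over the 11 p = 0.00165), and r = -0.65 without HF mice 2 and 3. The endothelial sum had r = -0.48 and rho = -0.46 (permutation p = 0.0161 and 0.0404, adjusted p = 0.0883) and total counts r = 0.48 and rho = 0.42 (permutation p = 0.0561 and 0.104, adjusted p = 0.195). For the other 8 the permutation p of r lay between 0.0722 and 0.663. Their part in the relation of the 6 members with Xbp1 was not tested.

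The other genes of the pathway were taken from 6 lists of 164 genes, of which 156 could be tested. In HF against NP 1 was called, Mthfd2, while 12 were higher and 2 lower at an unadjusted p under 0.05 (8.97%, against 13.1% of all genes). Mthfd2, a mitochondrial folate enzyme raised by ATF4, stood at 43.6 ± 7.17 in the NP mice, 56.4 ± 14.3 in the LP mice, 123 ± 12.5 in the HF mice and 95.7 ± 25.0 in the HF + LP mice (mean ± SD, n = 5), with a log2 fold change of 1.49 (SE 0.20, adjusted p = 0.000527) in HF against NP and 1.114 (SE 0.14, adjusted p = 0.000125) for fat averaged. Of the PERK and ATF4 branch 16 of 18 genes were higher in HF against NP, 6 of them at an unadjusted p under 0.05 (33.3%), with a median of 0.24. In HF + LP against HF, which shares the HF mice, 17 of 18 were lower, 3 at an unadjusted p under 0.05 (16.7%, against 4.84% of all genes), with a median of -0.32, and 0 were called. All 10 fibroblast and all 11 macrophage markers were likewise higher in HF against NP and lower in HF + LP against HF, and their part in these values was not tested. Atf3, a stress transcription factor of that branch, had 1.107 (SE 0.29, adjusted p = 0.0621) in HF against NP and Nupr1, another, 0.59 (SE 0.16, adjusted p = 0.0745). In HF + LP against HF Sesn2 had -0.89 (SE 0.30, adjusted p = 0.578), Nupr1 -0.42 (SE 0.16, adjusted p = 0.754) and Ddit3, the gene of CHOP, -0.38 (SE 0.18, adjusted p = 0.999).

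Among 42 other folding enzymes and chaperones, 33 were higher in HF against NP, 5 at an unadjusted p under 0.05 (11.9%, against 13.1% of all genes), none of them called. Calu, calumenin, which belongs to the same calcium-binding family as Rcn1, stood at 808 ± 123 in the NP mice, 790.3 ± 177 in the LP mice, 1222 ± 297 in the HF mice and 1262 ± 323 in the HF + LP mice, with 0.63 (SE 0.14, adjusted p = 0.0131) for fat averaged and 0.60 (SE 0.20, adjusted p = 0.149) in HF against NP. Ppib, the ER cyclophilin, had 0.35 (SE 0.10, adjusted p = 0.0788) in HF against NP, and Serp1, which stabilises membrane proteins under stress, 0.43 (SE 0.15, adjusted p = 0.194). Of 35 other genes of translocation, glycosylation and signal peptide removal, 5 were higher and 1 lower at an unadjusted p under 0.05 for fat averaged (17.1%, against 20.8% of all genes), 0 called. Tmem258, a further oligosaccharyltransferase subunit, had 0.37 (SE 0.11, adjusted p = 0.0581), and Sil1, the nucleotide exchange factor of BiP, 0.25 (SE 0.083, adjusted p = 0.0869). Of 27 other degradation genes 1 was higher at an unadjusted p under 0.05 in HF against NP, Faf2 at 0.27 (SE 0.11, adjusted p = 0.294). Of 10 other sensors and transcription factors 9 were higher, and Wfs1, the ER membrane protein wolframin, was lower at -0.32 (SE 0.14, adjusted p = 0.334). The 24 genes of ER to Golgi transport had a median of 0.0082 with none at an unadjusted p under 0.05.

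The 9 members with an ERSE or ERSE-II in the window, shown at the start, had a median log2 fold change of 0.071 in HF against NP, with values from -0.26 to 0.23 and none at an unadjusted p under 0.05. The 22 members with a promoter and neither element had a median of 0.11, and none of them lay at an unadjusted p under 0.05 either. In LP against NP the medians were -0.0046 and 0.017, with 1 of the 22 (Edem1) at an unadjusted p under 0.05. Rcn1 and Ostc are among the 9 members without a promoter in the table.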

How the data were processed

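RNA of left ventricles from 20 mice (4 diets, 5 mice each) was sequenced as 3' tags with 75-base reads. The authors deposited raw counts per gene. Their reads were aligned on the BlueBee platform, and the submitters' processing notes name GRCm38 and DESeq2 1.22.2, while the aligner version, annotation and counting program are not given in the sources used here. All 20 columns were matched to a sample by the library name in its description, and 0 columns were without one. Groups came from the sample titles. Nothing states that the animal numbers pair mice of different diets, so the main fit had no block.

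Counts were analysed with edgeR 4.0.16 in R 4.3.3 (quasi-likelihood F test, TMM, filterByExpr, 1 fit of all 20 libraries) over 13991 genes with Benjamini-Hochberg adjustment. Genes were called where the base mean was over 50 and the adjusted p under 0.01, the study's thresholds. Normalized counts are counts divided by TMM-scaled library sizes relative to their geometric mean. Library totals were 12559607 to 23331907. The labels number separate animals, so p-values measure the spread between animals of this study. The title of LP mouse 5 alone adds a sample number, whose meaning is not given, and it was used as an ordinary LP mouse.

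Named in full were Hspa5, Xbp1, Ern1, Atf6 and the 5 members with the smallest p in each of 7 contrasts, others by range and count, and from each of 6 further pathway lists at most 3 genes with the smallest p. Members and lists were chosen with earlier results of these data known, and the thymocyte list and the Xbp1 covariate after the values were seen. Permutations (100000) were within diets. Alternatives were RLE size factors, DESeq2 1.42.0, other filters and thresholds, the library-name number as covariate, a replicate block, the 2 groups alone, each mouse left out, and, added after seeing the data, 2 LP libraries or 6 atrial-rich libraries left out. Scripts were tested on simulated data. Symbols and gene overlaps came from GENCODE vM21, promoters from RefSeq (GRCm38.p6).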

Additional observations from a re-analysis of the deposited data

Results flagged for a closer look

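In each diet group of 5 mice, the gap between the highest or lowest mouse and its nearest neighbour was compared with the whole range of the group. Of 160 such groups of members, 5 had a gap above 0.71 of the range, and chance flags about 1 in 20 groups. Ern1 was at 153 in LP mouse 13 with the other 4 LP mice at 113 or lower. Ssr2 was at 230 in LP mouse 13, below the other LP mice. Edem1 was at 441 in LP mouse 20, above the other LP mice. Ssr1 was at 685 in LP mouse 2, above the other LP mice. Rcn3 was at 439 in NP mouse 4, above the other NP mice. Of these 5, 4 lie in LP, and 3 of them in the libraries that carry thymocyte or atrial and adipose transcripts. No member had an interaction of fat and protein at an adjusted p under 0.05 in edgeR.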

How the results depend on the processing

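Over 61 results and 1652 recomputed values, 1568 stayed on their side of the threshold in the same direction or, for counts and values with no test, moved by at most 1.5 times or by less than the spread between mice. The count of members called in HF against NP, 0, became 2 with DESeq2 and 2 at an adjusted p under 0.05, and 0 to 1 with 1 mouse left out (1 without HF + LP mouse 3). For fat averaged over protein levels the count of 1 became 2 with DESeq2, 2 at an adjusted p under 0.05, 0 with the library-name number as a covariate, 0 with the replicate block, 0 without LP mice 13 and 20, 0 without the 6 atrial-rich libraries, and 0 to 2 with 1 mouse left out (2 without HF + LP mouse 1). The replicate block, on animal numbers that nothing ties to shared cages or litters, gave Rcn1 0.37 (adjusted p = 0.208) for fat averaged, which ended its call. With the block the members at an unadjusted p under 0.05 went from 2 to 3 in HF against NP, 3 to 0 in HF + LP against LP, 1 to 3 in LP against NP, 4 to 3 for fat averaged and 0 to 3 for protein averaged, and stayed 0 in HF + LP against HF and 1 for the interaction. The block gave a Rpn2 interaction of -0.032 in place of -0.18, Sel1l -0.30 in LP against NP and -0.15 for protein averaged, Sec61a1 0.026 in LP against NP, Creld2 0.34 for protein averaged, and Edem1 0.40 in LP against NP, -0.10 in HF + LP against LP and -0.82 for the interaction. Same-numbered HF and HF + LP mice had deviations correlated at -0.23, -0.12, 0.48, 0.23 and -0.56. In the other diet pairs compared the values ran from -0.48 to 0.37. So few values, of both signs, cannot show whether the numbers pair mice. The other counts of calls, all 0, stayed 0 in every alternative, the block included, and 6 members rising with Xbp1 stayed at 5 to 8. Signs turned for Rcn3 in HF + LP against LP (0.35 with the block, 0.17 without the atrial-rich libraries), for Edem1 under protein averaged (-0.012 with the block, -0.055 without LP mouse 20, -0.18 without LP mice 13 and 20, and up to 0.571 with another mouse left out) and for Sec61b there (-0.028 without both). The members' median, which has no test, turned its sign in 9 of 29 alternatives in HF + LP against LP (up to 0.044, with the block) and in 2 of 29 in LP against NP (-0.0057 without LP mouse 13, -0.0004 without the atrial-rich libraries). Where no reason is built into the alternative, the cause was not tested. Depth limits Pdia4 and Sdf2l1, with means under 50.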
